A study of Homo sapiens with 15 samples.

Results

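Cells given estrogen receptor β (ERβ) in an ERβ knockout background were compared with control cells that kept their own receptor. The comparison took 6 of the 15 libraries of the series, chosen by their labels: 3 add-back and 3 control libraries, all grown without added ligand or vehicle. The 3 knockout libraries of the same experiment are given beside them as the labelled background of the add-back cells. They are separate libraries and need not show where the add-back cells stood before the receptor was put back. All cells were KPL4, an established human breast adenocarcinoma line with amplified HER2 (ERBB2). Control cells carried the endogenous ERβ gene, ESR2. Knockout cells are labelled as lacking ERβ, and for the add-back cells exogenous ERβ had been transfected into this knockout background. The labels do not state how the gene was disrupted, how many clones were used or which vector carried the receptor, so differences between clones cannot be told apart from differences due to ERβ. All 9 libraries came from the same medium, HAM's F12 with 7% serum, 10 mM HEPES, 5 µg/mL insulin and 1 µg/mL hydrocortisone. The libraries were strand-specific and made from total RNA after removal of ribosomal RNA. The comparison asks which knockout differences were also present in add-back cells, which were not, and which genes lay past the control level there. Words such as moved, returned and overshot compare these groups and do not follow the same cells over time.

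ERβ is a nuclear receptor that binds estrogens and then acts as a transcription factor. It contacts DNA at estrogen response elements, which are paired GGTCA core sites facing each other, or through other factors such as AP-1. In breast tissue it is expressed in luminal, basal and stromal cells, and it is often described as a brake on growth driven by the related receptor ERα.

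Depth was 13649584 to 15932714 expected counts per library in control cells, 12614074 to 15891449 in knockout cells and 14966501 to 17736189 in add-back cells. The labels do not state whether libraries of a group came from separate cultures, so p-values measure only the spread between these libraries. Markers of a HER2-amplified epithelial breast line (10 genes, among them ERBB2, EPCAM, CDH1 and KRT18) were all detected in each library, with a summed level of 8133 to 8458 CPM (counts scaled to library size) in control and 10922 to 11173 CPM in add-back cells. Of 18 markers of immune, endothelial and stromal cells, 7 to 8 had 0 reads in a control library and 4 to 6 in an add-back library, and their summed level was 10.8 to 14.5 and 14.6 to 16.5 CPM. Of the 6 that passed the filter on low counts 2 were called, both higher in add-back cells: CD68, a macrophage marker that carcinoma cells can also express, at 0.163 ± 0.110 against 0.709 ± 0.174 CPM, and COL1A1, a collagen chain, at 2.33 ± 0.456 against 4.002 ± 0.372 CPM (mean ± SD, n = 3 libraries each). COL1A1 was not called once trends with GC content and transcript length were removed. The fibroblast genes COL3A1 and DCN and the leukocyte gene PTPRC stayed under the filter, and the collagen gene COL1A2 had 0 reads in all 9 libraries.

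ESR2 (ENSG00000140009, GRCh38 chromosome 14, 64084232 to 64338112, minus strand) was at 6.44, 4.79 and 6.07 CPM in the control libraries and at 34.1, 33.8 and 30.6 CPM in the add-back libraries. Every add-back library lay above every control library, so the receptor mRNA was not returned to its endogenous level but exceeded it. The means were 5.76 ± 0.867 and 32.8 ± 1.94 CPM (SD, n = 3 each), a 5.69-fold difference (log2 fold change 2.51 ± 0.12, SE of the fit, adjusted p = 4.57e-12 in edgeR's quasi-likelihood test). Knockout cells were at 5.77, 3.04 and 4.41 CPM, overlapping control, and ESR2 was not called lower in knockout than in control cells (log2 fold change -0.38, adjusted p = 0.0796). The mRNA level therefore does not check the knockout label. ESR2 overlaps SYNE2 on the opposite strand, and the sources used here do not say whether counting used strand, so some of the low ESR2 values may be SYNE2 reads.

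The transcript estimates showed which form of the receptor mRNA made up the excess. ESR2-206, a protein-coding transcript, had a mean of 0.0920 CPM in control cells, 0.0816 CPM in knockout cells and 16.4 CPM in the add-back libraries. ESR2-201, also protein-coding, and the non-coding ESR2-210 had 0 expected counts in all 6 control and knockout libraries and 5.82 and 3.32 CPM in add-back cells. The transcripts that carried most of the signal in control cells had similar means in both groups: ESR2-202 had 2.14 CPM in control and 2.34 CPM in add-back cells, and ESR2-213 had 1.99 and 1.82 CPM. Reads from the overlapping parts of these transcripts are divided among them by estimation, so the split carries an error that these values do not show.

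In all, 8942 of 19516 genes tested were called at an adjusted p under 0.05 in add-back against control cells, which is 45.8% of them. Of these 4518 (23.2%) were higher and 4424 (22.7%) were lower in add-back cells. At least 2-fold higher were 904 genes (4.63%), and at least 2-fold lower were 525 (2.69%). Knockout against control called 46% of the same genes and add-back against knockout 19.6%. Called genes were mostly protein-coding, with 4109 of 14012 higher and 3419 lower. The called processed pseudogenes were mostly lower, with 22 of 968 higher and 191 lower and a median log2 fold change of -0.38, and so were the called transcripts lying within introns, with 4 of 249 higher and 59 lower.

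Each gene was placed by its calls in these 3 comparisons. They share libraries, so the counts describe how the 9 libraries lie and are not independent evidence. Not restored means called in both add-back and knockout cells against control, in the same direction. This held for 6536 genes, 3387 higher and 3149 lower than control. For 5099 of them no move from knockout to add-back was called, 957 had moved partly back, and 480 lay further from control than in the knockout cells. Returned means called in knockout against control, with a call of the other sign when add-back is set against knockout, and with no call for add-back against control, which held for 1081 genes, 507 that the knockout had higher and 574 that it had lower. A difference that misses the threshold does not show that the level is the same as in control. Overshot means called on opposite sides of control in knockout and in add-back cells, which held for 147 genes, 83 of them higher than control in add-back cells and 64 lower. Add-back only means called in the same direction against both control and knockout cells while those 2 were not called against each other. This held for 863 genes, 446 higher and 417 lower.

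The classes differed in the size of the difference. The median absolute log2 fold change of add-back against control was 0.43 in the genes with no detectable move, 0.44 in those partly returned, 0.65 in those that moved further, 0.30 in those that overshot and 0.34 in the add-back only genes. At least 2-fold differences were found in 828, 155, 110, 6 and 94 genes of these classes. Overshoot was therefore mostly small. Of the 1146 genes at least 2-fold higher in knockout cells, 867 were not restored, 275 were not called in add-back against control and 4 overshot. Of the 467 genes at least 2-fold lower in knockout cells these counts were 356, 102 and 9. In add-back cells 655 of the 1146 and 217 of the 467 were still at least 2-fold from control.

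**Figure D1:**
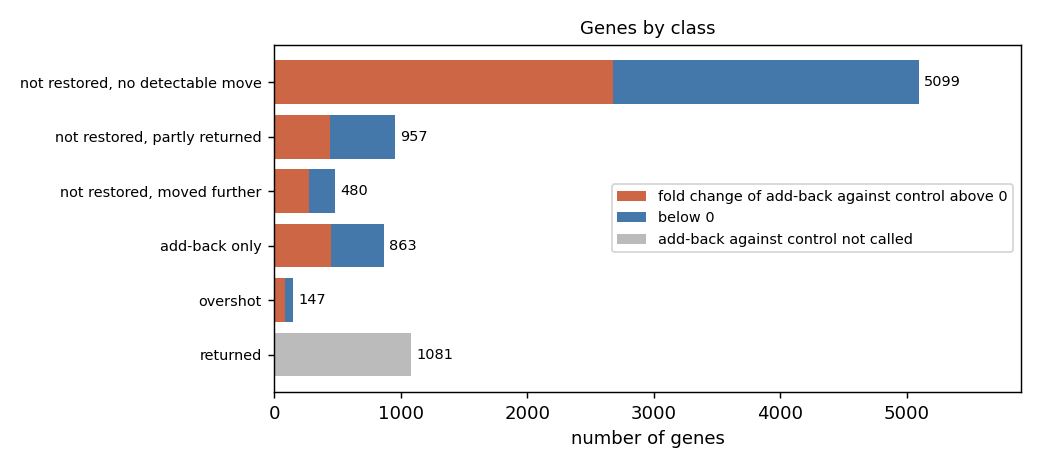
Number of genes in each class defined by the calls in add-back, knockout and control cells, with genes above control in add-back cells in orange and below it in blue, and returned genes, which were not called against control, in grey. The 5099 genes with no detectable move form the longest bar, against 1081 returned and 147 overshot genes.

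Of the 8 named for the largest rises over control, a rule that took only protein-coding genes above a set mean level whose libraries did not overlap, all were called higher in knockout cells already. GLI3 (chromosome 7, 41960950 to 42237870), a transcription factor of Hedgehog signalling, was at 0.985, 0.643 and 1.07 CPM in control and at 13.1, 13.04 and 14.9 CPM in add-back libraries. Knockout libraries lay between, at 8.37 to 9.06 CPM. The rise was 15-fold (log2 fold change 3.91 ± 0.15, adjusted p = 3.39e-13), and the move beyond knockout was called too (adjusted p = 0.000113). AMBP, a precursor of the protease inhibitor bikunin, rose 8.2-fold, from 6.51 to 7.36 CPM in control to 56.0 to 57.6 CPM in add-back libraries, with knockout at 47.2 to 50.1 CPM. OLFML3, an extracellular matrix protein, rose 12.8-fold and NCMAP, a myelin-associated membrane protein, 8.66-fold, and for both the knockout level was not called apart from the add-back level. CLIC3, a chloride intracellular channel protein, climbed in steps, at 0.963 ± 0.299, 3.48 ± 1.30 and 8.17 ± 0.388 CPM in control, knockout and add-back cells, and its log2 fold change of 3.09 became 2.20 with offsets for GC content and length. ADCY2, an adenylate cyclase, went the other way between knockout and add-back, from 16.4 ± 1.23 to 6.05 ± 0.574 CPM, and was still 8.90-fold above its control level of 0.679 ± 0.109 CPM. The entry with the largest fitted rise by the naming rule, ENSG00000267059, has no symbol and had 0 CPM in 1 control library and 9.58 to 14.1 CPM in add-back libraries.

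The largest falls under the same rule were again differences that the knockout cells had. BMP5, a bone morphogenetic protein, was at 9.39, 9.57 and 8.91 CPM in control and at 0.906, 1.27 and 1.34 CPM in add-back libraries. Knockout libraries were at 0.913 to 1.14 CPM, so the groups of knockout and add-back libraries overlapped. BMP5 was 7.84-fold lower than in control (log2 fold change -2.97 ± 0.18, adjusted p = 1.41e-10), and the move from knockout was not called (adjusted p = 0.706). NRG1, the ERBB3 and ERBB4 ligand neuregulin, came back in part: it was at 26.2 to 29.9 CPM in control, 1.5 to 1.98 CPM in knockout and 5.43 to 5.56 CPM in add-back libraries. The 3 groups did not overlap, and the add-back level was 5.16-fold below control (adjusted p = 6.43e-13). NRP2, a coreceptor for semaphorins and VEGF, did likewise at 13.3 ± 0.732, 1.13 ± 0.296 and 3.01 ± 0.426 CPM, and lies on the long arm of chromosome 2 in a stretch described further on. SPAG16, a sperm flagellar protein, COLEC10, a collectin, and SLC6A15, a neutral amino acid transporter, were 5.98-fold, 4.80-fold and 4.33-fold below control with no move from knockout called. CTNND2, δ-catenin, fell further than in knockout cells, from 20.9 ± 1.68 CPM in control through 7.36 ± 0.399 to 4.89 ± 0.709 CPM. ENSG00000173867, an entry with no symbol used here, was 4.19-fold lower.

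**Figure D2:**
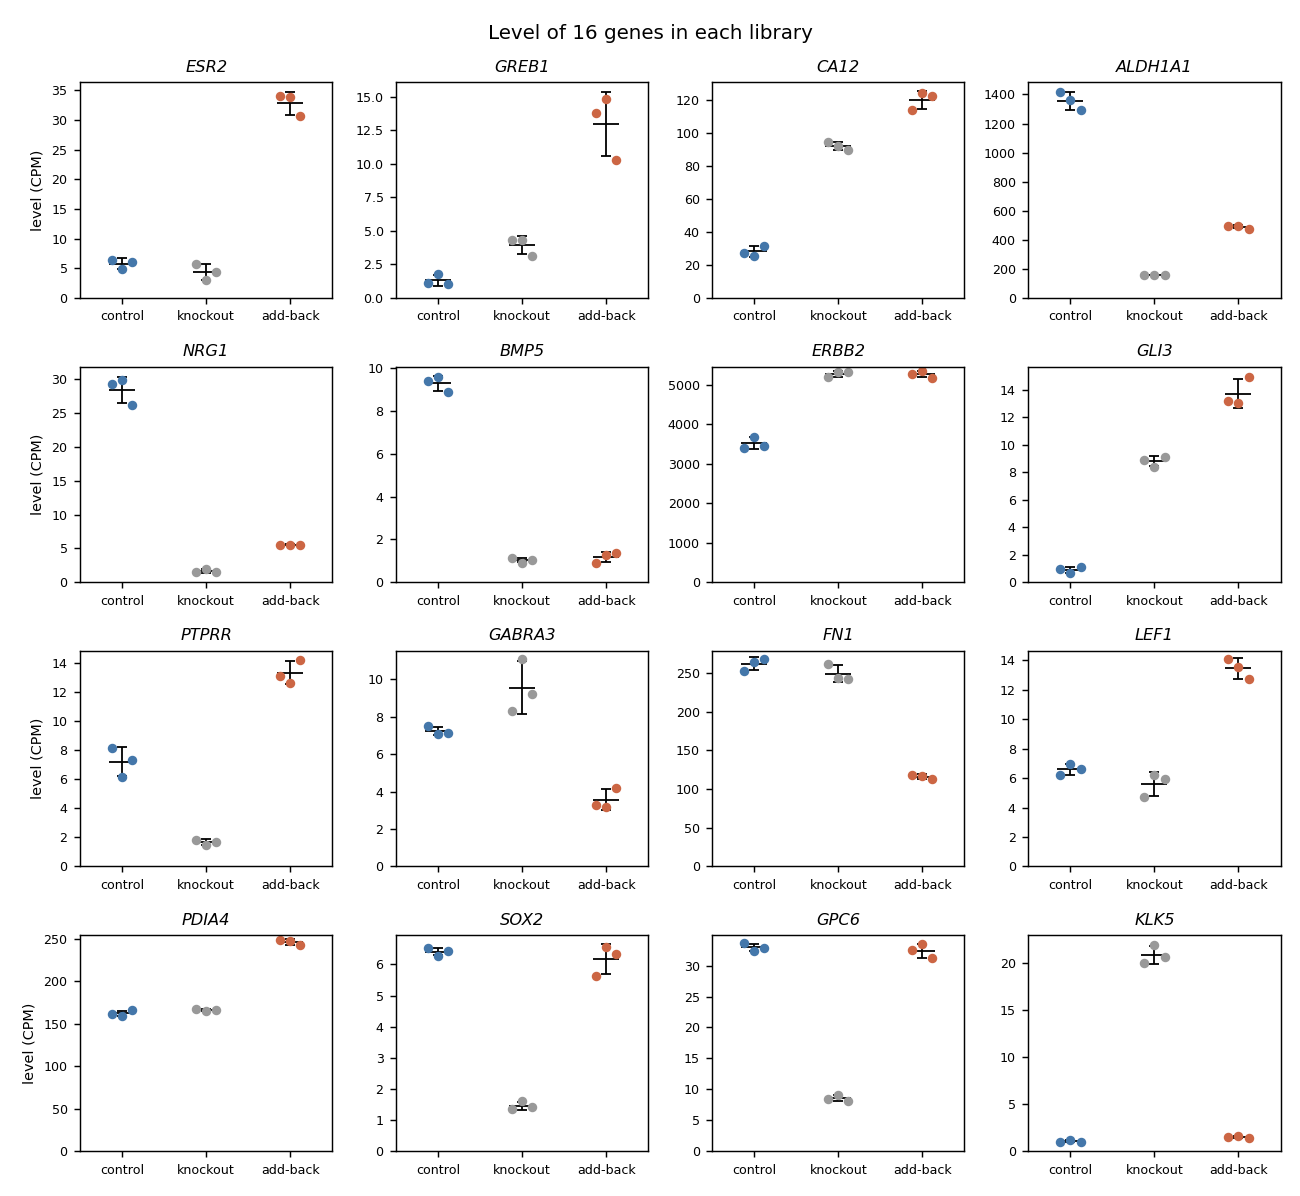
Level of 16 genes in CPM, on a linear axis from 0, in each control (blue), knockout (grey) and add-back (orange) library, with a bar for the mean and whiskers for the SD of 3 libraries. ESR2, PTPRR and LEF1 lie above both other groups in add-back cells, FN1 and GABRA3 below both, BMP5 and ERBB2 stay at the knockout level, and SOX2, GPC6 and KLK5 lie near control.

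The genes that had moved further from control than in knockout cells included known estrogen targets. GREB1, an estrogen-induced coactivator, was at 1.14, 1.79 and 1.01 CPM in control, 4.35, 4.34 and 3.12 CPM in knockout and 13.8, 14.9 and 10.3 CPM in add-back libraries. The 3 groups did not overlap and rose in that order, with add-back 9.94-fold above control (log2 fold change 3.31 ± 0.19, adjusted p = 9.47e-11). CA12, a carbonic anhydrase induced by estrogen, took the same order at 28.1 ± 3.05, 92.0 ± 2.27 and 120 ± 5.43 CPM, and was 4.27-fold above control. COL4A1, a basement membrane collagen on chromosome 13, and MDGA2, a neuronal adhesion protein, took the opposite order. COL4A1 was at 4.55 ± 0.503, 2.12 ± 0.363 and 1.11 ± 0.268 CPM, and MDGA2 at 6.62 ± 0.509, 5.03 ± 0.0723 and 2.13 ± 0.266 CPM. FTL, the ferritin light chain, fell from 3461 to 3510 CPM in control to 1932 to 2069 CPM in knockout and 1499 to 1578 CPM in add-back libraries (log2 fold change of add-back against control -1.19 ± 0.03, adjusted p = 1.31e-16).

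Overshoot was seen at a pair of neighbouring genes on chromosome 12 that encode receptor tyrosine phosphatases. PTPRR (70638073 to 70920843) was at 8.18, 6.14 and 7.33 CPM in control, 1.85, 1.45 and 1.71 CPM in knockout and 13.1, 12.7 and 14.2 CPM in add-back libraries. PTPRB (70515866 to 70637440), which lies next to PTPRR with both on the minus strand, was at 2.80 to 3.43, 1.22 to 1.85 and 5.14 to 5.56 CPM in these groups. In both genes the knockout libraries were lowest, the add-back libraries highest, and no groups overlapped. The rises over control were 1.84-fold for PTPRR (adjusted p = 1.93e-06) and 1.71-fold for PTPRB (adjusted p = 9.18e-05). UPK1B, a uroplakin of urothelium, overshot from 0.731 ± 0.201 CPM in knockout to 2.65 ± 0.337 CPM, against 1.39 ± 0.155 CPM in control. RNF223, a ring finger protein, was 1.75-fold above control, but its log2 fold change of 0.81 went to 0.12 (adjusted p = 0.581) with offsets that remove each library's trends with GC content and transcript length.

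Overshoot to the low side was led by GABRA3, a GABA-A receptor subunit on chromosome X. It was at 7.50, 7.07 and 7.14 CPM in control, 8.34, 11.1 and 9.25 CPM in knockout and 3.30, 3.20 and 4.22 CPM in add-back libraries. Every add-back library was below every control library, and the level was 2.03-fold lower than control (adjusted p = 8.11e-06). NRK, a kinase gene on the same chromosome, was at 15.1 ± 1.55, 21.99 ± 1.68 and 8.60 ± 0.469 CPM. LBH, a transcription cofactor known as a Wnt target in mammary epithelium, was at 21.97 ± 0.767, 35.3 ± 1.41 and 13.2 ± 0.801 CPM, and CLEC7A, the β-glucan receptor dectin-1, at 7.10 ± 0.961, 11.9 ± 1.26 and 4.24 ± 0.135 CPM. Among the luminal genes described further on, the keratin KRT8 overshot upward, with 1159 to 1239 CPM in control, 961 to 1098 CPM in knockout and 1449 to 1541 CPM in add-back libraries (adjusted p = 5.35e-06).

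The add-back only genes stood at one level in control and knockout cells and at another in add-back cells. FN1, fibronectin, was at 252, 265 and 269 CPM in control, 262, 243 and 243 CPM in knockout and 119, 117 and 113 CPM in add-back libraries. Control and knockout libraries overlapped, and no add-back library exceeded 119 CPM, 2.25-fold below control (log2 fold change -1.17 ± 0.04, adjusted p = 7.19e-14). ARHGAP20, a GTPase-activating protein, PRUNE2, a BCH-domain protein, and ASB18, a SOCS-box protein, were 2.72-fold, 2.54-fold and 2.31-fold below control. TGFB2, the ligand TGF-β2, was at 17.8 to 18.6 CPM in control and 10.1 to 12.04 CPM in add-back libraries (adjusted p = 9.90e-06).

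On the high side, LEF1, a transcription factor of Wnt signalling, was at 6.21, 6.93 and 6.63 CPM in control, 4.70, 6.24 and 5.94 CPM in knockout and 14.1, 13.5 and 12.7 CPM in add-back libraries. Add-back libraries lay above all others, 2.04-fold over control (adjusted p = 1.49e-07). DUSP2, a nuclear phosphatase of MAP kinases, was at 1.74 ± 0.281, 2.28 ± 0.684 and 4.77 ± 0.363 CPM (2.72-fold over control, adjusted p = 9.47e-06). Its log2 fold change of 1.45 became 0.9 with the offsets. APOD, a lipocalin, was at 5.45 ± 0.875, 6.28 ± 0.547 and 14.5 ± 2.15 CPM, and PCDH11X, a protocadherin, at 3.42 ± 0.321, 2.94 ± 0.668 and 8.69 ± 1.24 CPM. PDIA4, a protein disulfide isomerase of the endoplasmic reticulum, was at 159 to 166, 165 to 168 and 243 to 249 CPM, with adjusted p = 2.22e-11 against control. LAMA3, the laminin α3 chain of epithelial basement membranes, was at 76.7 to 78.9, 76.6 to 79.5 and 104 to 114 CPM (1.41-fold over control, adjusted p = 1.11e-08).

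Promoter windows ran from 250 bases before to 50 bases after the start, from RefSeq on GRCh38.p14. They were found for 18 of the 26 genes that the rule named as overshot or add-back only. They were searched on both strands for the core site GGTCA, for the full estrogen response element, which is this core site followed after 3 bases by its reverse complement, and for the AP-1 motif TGANTCA. A full element holds the core site on each strand, so these motifs overlap. None of the 18 windows held the full element, which 0.06% of all 35116 RefSeq windows held. Other overshot or add-back only genes given in this report, among them TFF1, IGFBP4, KRT8 and FOXA1, were not among the 26. The core site was in 6 of the 18 and in 37.38% of all windows, and the AP-1 motif in 1 of the 18 and in 7.71% of all windows. ESR2 itself is among the 18, with the window of its endogenous gene and not that of the exogenous receptor. Its window held none of the motifs. The LAMA3 window (chr18:23872770-23873069, plus strand) is shown because it alone held AP-1 matches, and they are in capitals, with the first base of each at 125 and 69 bases before the start.
LAMA3: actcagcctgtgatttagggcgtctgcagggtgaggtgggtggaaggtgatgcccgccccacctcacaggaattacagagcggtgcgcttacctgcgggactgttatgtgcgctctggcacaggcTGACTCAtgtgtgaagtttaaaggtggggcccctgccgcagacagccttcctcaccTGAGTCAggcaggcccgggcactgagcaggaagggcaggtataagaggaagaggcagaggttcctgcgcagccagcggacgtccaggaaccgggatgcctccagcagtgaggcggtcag
The DUSP2 window (chr2:96145391-96145690, minus strand) is shown because it held a core site, in capitals. In the fit without offsets DUSP2 also had the largest rise of the add-back only genes named by the rule other than ESR2.
DUSP2: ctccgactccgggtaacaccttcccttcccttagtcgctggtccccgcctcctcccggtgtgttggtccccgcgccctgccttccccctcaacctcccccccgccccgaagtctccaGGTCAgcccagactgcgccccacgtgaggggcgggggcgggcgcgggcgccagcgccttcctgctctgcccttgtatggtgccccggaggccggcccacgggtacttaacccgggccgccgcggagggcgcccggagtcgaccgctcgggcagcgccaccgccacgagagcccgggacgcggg
These matches are descriptions of the letters in a short window. Of the overshot genes above control 29.69% of 64 windows held the core site, of the add-back only genes above control 33.63% of 342, and of the genes that moved further above control 31.34% of 201. Below control these shares were 37.78% of 45, 32.41% of 253 and 25.68% of 148, and among all genes tested 34.94%.

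The genes classed as returned moved toward control and were not called apart from it, which does not show the same level. KLK5, a kallikrein protease, was at 0.985, 1.14 and 0.948 CPM in control, 20.02, 21.9 and 20.6 CPM in knockout and 1.49, 1.60 and 1.41 CPM in add-back libraries. All add-back libraries were still above the control libraries, but the difference from control did not pass (log2 fold change 0.55 ± 0.19, adjusted p = 0.0795). PGM5, a phosphoglucomutase-like protein of cell adhesions, was at 2.40 ± 0.337, 11.6 ± 0.630 and 2.73 ± 0.630 CPM. JPH2, a junctophilin, was at 1.39 ± 0.436, 5.92 ± 0.503 and 2.15 ± 0.639 CPM (adjusted p against control 0.0535), and was called above control without control replicate 3 (adjusted p = 0.0120), add-back replicate 1 (0.0248) or add-back replicate 2 (0.0479). In the other direction SOX2, a stem cell transcription factor, was at 6.29 to 6.51 CPM in control, 1.35 to 1.60 CPM in knockout and 5.63 to 6.57 CPM in add-back libraries. GPC6, a glypican, was at 33.6, 32.4 and 32.9 CPM in control, 8.41, 9.06 and 8.14 CPM in knockout and 32.5, 33.5 and 31.2 CPM in add-back libraries. Control and add-back libraries of GPC6 overlapped, with a log2 fold change of -0.02 ± 0.05 (adjusted p = 0.744), although GPC6 lies on chromosome 13, where most genes stayed low in add-back cells. TRIM31, a ubiquitin ligase, was at 4.26 ± 1.14, 0.622 ± 0.0581 and 3.05 ± 0.206 CPM (adjusted p against control 0.0560), and was called below control without control replicate 2 (adjusted p = 0.0293).

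Gene lists were read by the number of members called in each direction, beside 23.2% higher and 22.7% lower among all genes, and by their median log2 fold change, beside -0.02 for all genes. The lists hold mostly protein-coding genes, which were called more often than all genes, 53.7% against 45.8%. Of 14012 protein-coding genes 4109 were higher and 3419 lower, with a median of 0.02. Class counts within lists stand beside those of all 19516 genes tested. Of these 6536 were not restored, 1081 had returned, 863 were add-back only and 147 overshot. The classes were not counted for protein-coding genes alone. Of 18 tested genes known to be induced by estrogen in breast cancer cells, 10 were higher and 2 lower, with a median of 0.41. Of the 18, 10 were not restored, 3 had returned and 2 were add-back only. The add-back only members were TFF1 and IGFBP4, singled out after their values were seen. TFF1, the trefoil factor first found as an estrogen-induced RNA, had 10 reads summed over the control libraries, 12 over the knockout and 113 over the add-back libraries, at 0.143 to 0.303, 0.0761 to 0.429 and 2.04 to 2.68 CPM (adjusted p against control 4.79e-07). IGFBP4, which binds and holds insulin-like growth factors, was at 9.70, 8.43 and 10.4 CPM in control and 19.8, 22.8 and 18.9 CPM in add-back libraries (2.15-fold, adjusted p = 2.95e-08), and its log2 fold change of 1.11 became 0.64 with the offsets, which classed it as overshot. CTSD, a lysosomal protease, and NHERF1, a scaffold protein, were 2.04-fold and 1.59-fold above control with no move from knockout called. With the offsets CTSD had a log2 fold change of 0.46 in place of 1.03 and was classed as partly returned. That of NHERF1 was then 0.29 in place of 0.67. The members below control were CCND1, cyclin D1, and NRIP1, a corepressor of nuclear receptors. ESR1, the gene of ERα, which was also singled out, was at 9.16 to 10.9 CPM in control, 17.2 to 17.7 CPM in knockout and 15.9 to 19.2 CPM in add-back libraries, so its rise in the knockout was not restored (log2 fold change 0.78 ± 0.09, adjusted p = 4.53e-07).

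Luminal identity genes were mostly higher, 14 of 18 against 2 lower, with a median of 0.32, while basal genes went both ways, 5 of 10 higher and 4 lower. Only 10 of the 20 listed basal genes passed the filter on low counts. The basal keratins KRT5, KRT14 and KRT17 had 0 reads in the 9 libraries. KRT19, a luminal keratin, had 129.4 ± 8.2 CPM in control and 270 ± 8.67 CPM in add-back cells, GATA3, a luminal transcription factor, 20.9 ± 0.958 and 39.7 ± 1.29 CPM, and PRLR, the prolactin receptor, 28.6 ± 0.793 and 64.9 ± 1.85 CPM. The log2 fold change of KRT19 fell from 1.06 to 0.69 with the offsets. CLDN3, a tight junction protein, was 7.45-fold above control, at 4.07 to 4.55 CPM in control and 25.3 to 35.5 CPM in add-back libraries, and its log2 fold change of 2.90 became 1.90 with the offsets. The luminal genes that were add-back only included FOXA1 and ELF3, transcription factors, and AGR2, a disulfide isomerase, with log2 fold changes of 0.28, 0.12 and 0.29, and FOXA1 was classed as overshot with the offsets. CLDN3, KRT8, FOXA1, ELF3 and AGR2 were singled out after their values were seen. Of the basal genes KRT15 was 2.01-fold and ITGB4, an integrin of hemidesmosomes, 1.63-fold above control. The log2 fold change of ITGB4 fell from 0.71 to 0.12 with the offsets. The list of junction genes had 9 of 22 higher and 3 lower but a median of -0.01, and TJP3 and JUP, both parts of cell junctions, were 1.98-fold and 1.60-fold above control. With the offsets the log2 fold change of TJP3 fell from 0.98 to 0.46 and that of JUP from 0.68 to 0.27.

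ERBB genes and their ligands were split, 5 of 17 higher and 7 lower, with a median of -0.17. ERBB2 was at 3411, 3691 and 3460 CPM in control, 5187, 5332 and 5322 CPM in knockout and 5286, 5340 and 5187 CPM in add-back libraries. Knockout and add-back libraries overlapped and both lay above control, 1.5-fold in add-back cells (adjusted p = 1.54e-11). GRB7, an adaptor on the same amplicon, was 1.52-fold above control. With the offsets the log2 fold change of ERBB2 fell from 0.58 to 0.39 and that of GRB7 from 0.6 to 0.31. EGFR moved further away, from 91.6 ± 2.46 CPM in control through 74.5 ± 3.34 to 55.9 ± 1.78 CPM. Feedback genes of ERK signalling were higher in 9 of 14 and lower in 2 (median 0.40): the phosphatases DUSP4 and DUSP6 were 2.58-fold and 2.90-fold above control, and DUSP5 was 1.57-fold below. Of the AP-1 and immediate-early genes 6 of 16 were higher and 3 lower, with a median of 0.34 that fell to 0.07 with the offsets, when 4 were higher. JUNB was 2.83-fold above control, with a log2 fold change of 0.87 once the offsets were used, and MYC was 1.59-fold below. The AP-1 subunit JUND had 14.4 ± 0.331 CPM in control and 28.99 ± 2.66 CPM in add-back cells, but with the GC content and length offsets its log2 fold change of 1.01 turned to -0.07 (adjusted p = 0.44).

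**Figure D3:**
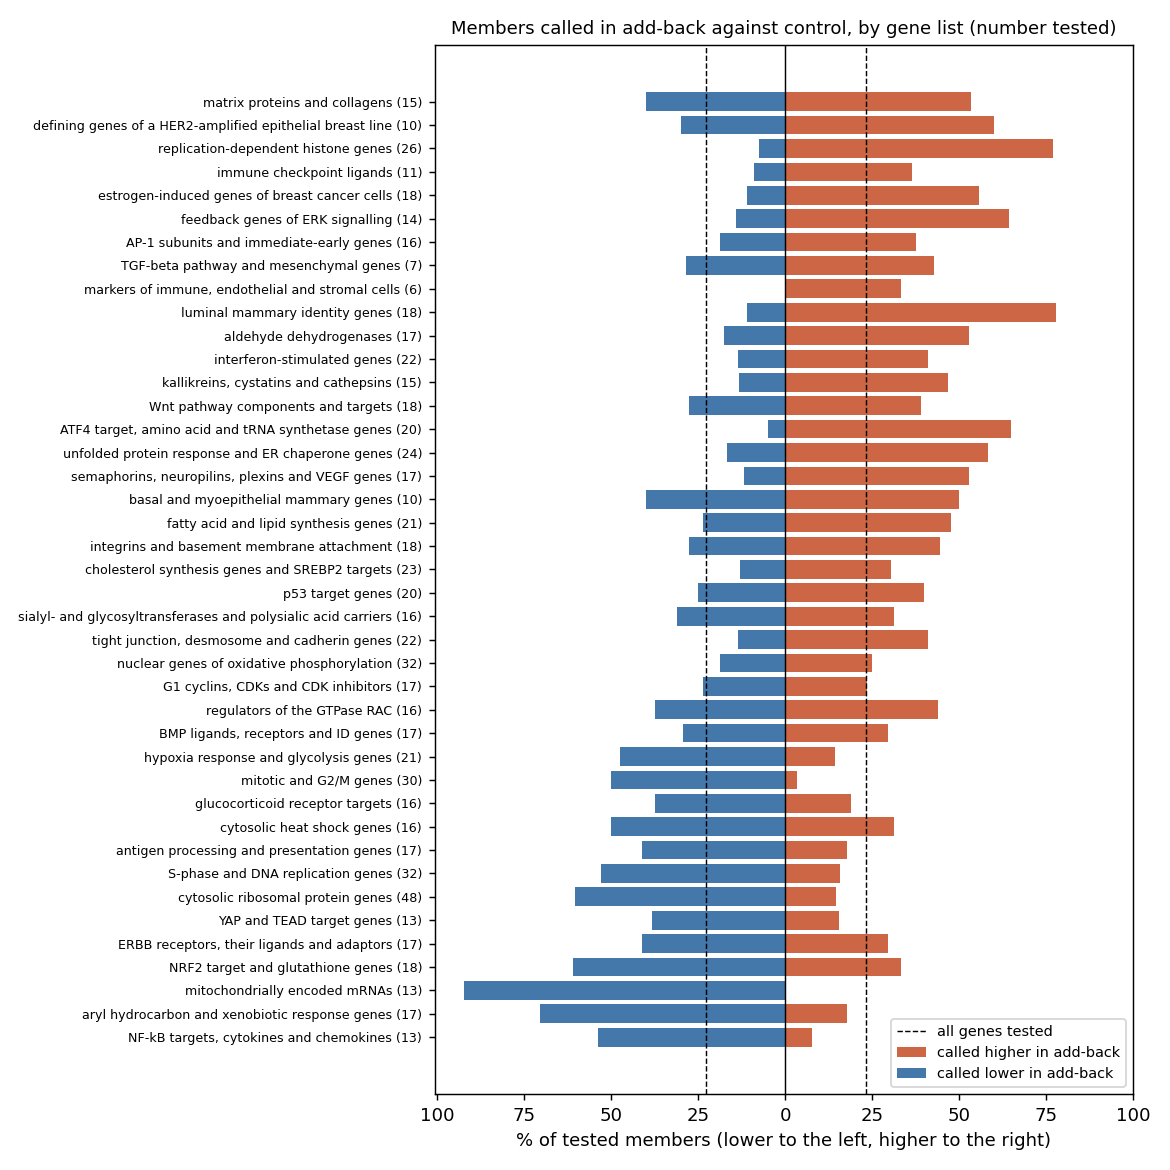
Percentage of the tested members of each of 41 gene lists called higher (orange, to the right) and lower (blue, to the left) in add-back against control cells, ordered by median log2 fold change, with dashed lines at 23.2% and 22.7%, the shares among all genes tested. Luminal and histone genes reach far to the right, with 14 of 18 and 20 of 26 members higher, and mitochondrially encoded mRNAs and xenobiotic response genes to the left, with 12 of 13 and 12 of 17 lower.

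Matrix and attachment genes were divided. Of 15 matrix genes 8 were higher and 6 lower, with a median of 0.67 that shrank to 0.18 with the offsets. COL6A1, a collagen VI chain, had 8.05 ± 1.37 CPM in control and 27.1 ± 0.429 CPM in add-back cells, whereas FN1, COL4A1 and THBS1, thrombospondin, were lower. Of the TGF-β pathway genes TGFB2 was lower and the receptor TGFBR1 1.34-fold higher, while the receptor TGFBR2, singled out after its values were seen, came back from 43.1 to 47.0 CPM in knockout to 77.1 to 78.7 CPM, near 81.3 to 85.8 CPM in control (adjusted p = 0.0849). TGFB1, also singled out, was 1.59-fold higher, but not with the offsets (adjusted p = 0.467). ITGAV, an integrin chain on chromosome 2, was 1.60-fold below control, and DST, a linker of hemidesmosomes to keratin, 1.44-fold below. Among YAP and TEAD targets 2 of 13 were higher and 5 lower (median -0.15), with the coagulation starter F3 at 44.5 ± 4.17 CPM in control and 18.7 ± 1.33 CPM in add-back cells. In knockout against control 7 of the 13 were higher and 3 lower (median 0.19), and 4 had returned in add-back cells. RAC regulators went both ways, 7 of 16 higher and 6 lower. PREX1 was at 0.126 to 0.357 CPM in control and 5.47 to 6.77 CPM in add-back libraries, and DOCK10 and TIAM1 were 2.78-fold and 2.20-fold below control.

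Detoxification genes were mostly lower. Of 17 xenobiotic response genes 12 were lower and 3 higher (median -0.44), and 13 were not restored: AKR1B10 and AKR1C3, aldo-keto reductases, were 2.71-fold and 1.94-fold below control and CYP4F11, a fatty acid hydroxylase, 2.21-fold. NRF2 targets and glutathione genes were lower in 11 of 18 and higher in 6, with SLC7A11, the cystine transporter, at 992 ± 39.9 CPM in control and 535 ± 30.7 CPM in add-back cells, and NFE2L2, the gene of NRF2, 1.48-fold below control. ALDH1A1, a retinaldehyde dehydrogenase used as a stem cell marker, came back in part: it was at 1290 to 1418 CPM in control, 154 to 158 CPM in knockout and 476 to 496 CPM in add-back libraries. That left it 2.77-fold below control (adjusted p = 1.99e-16). Of the 17 aldehyde dehydrogenases tested 9 were higher and 3, ALDH1A1 among them, were lower, with ALDH7A1 1.97-fold and ALDH3B2 1.70-fold above control. Glycolysis and hypoxia genes were lower in 10 of 21 and higher in 3, with LDHA, lactate dehydrogenase, 1.48-fold below and the prolyl hydroxylase gene EGLN3 1.57-fold below control.

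Fatty acid and lipid synthesis genes were higher in 10 of 21 and lower in 5, and higher in 9 and lower in 6 with the offsets. FASN, fatty acid synthase, was at 760, 923 and 720 CPM in control and 1934, 2012 and 1670 CPM in add-back libraries (2.34-fold, adjusted p = 9.98e-08), with no overlap, and its log2 fold change of 1.22 became 0.50 with the offsets. FADS2, a fatty acid desaturase, was 1.95-fold above control. Cholesterol synthesis genes were higher in 7 of 23 and lower in 3. Their share of calls was 43.5%, beside 45.8% of all genes and 53.7% of protein-coding genes. TM7SF2, a sterol reductase, was 3.05-fold above control, and its log2 fold change of 1.61 became 1.02 with the offsets.

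Replication genes were among the groups in which add-back cells left both other groups. Of 32 S-phase genes 17 were lower and 5 higher (median -0.14), and 11, all lower, were add-back only, against 863 of 19516 genes in all. In knockout against control 10 of the 32 were higher and 5 lower (median 0.08). MCM3, a helicase subunit, was at 172, 174 and 179 CPM in control, 171, 168 and 161 CPM in knockout and 115, 113 and 115 CPM in add-back libraries. Add-back libraries lay below all others, 1.53-fold under control (adjusted p = 7.55e-10). With the offsets MCM3 was called lower in knockout cells as well, and so moved further. MCM4, CDC6, CDC45 and GINS2, which load or form the replicative helicase, and E2F2, a cell cycle transcription factor, were add-back only as well, with log2 fold changes of -0.29, -0.26, -0.34, -0.31 and -0.30. MCM4, CDC6, CDC45, GINS2 and E2F2 were singled out after their values were seen. Their classes with the offsets are not given here. Mitotic genes were lower in 15 of 30 and higher in 1 (median -0.10), and 14 of the 30 were not restored. In knockout against control 23 of the 30 were lower and 1 higher (median -0.19), and 6 had returned in add-back cells. CDK1 was 1.51-fold, the spindle gene ASPM 1.48-fold and the proliferation marker MKI67 1.19-fold below control. With the offsets 10 mitotic genes were lower and 4 higher, and CDK1 and ASPM were classed as partly returned. The cell cycle inhibitor CDKN1C was at 0.307 ± 0.120, 1.03 ± 0.101 and 2.10 ± 0.0899 CPM, and the kinase gene CDK6 at 53.7 ± 1.90, 43.6 ± 0.866 and 32.0 ± 1.66 CPM in control, knockout and add-back cells. Replication-dependent histone genes were higher in 20 of 26 and lower in 2 (median 0.43), and 17 of the 26 were not restored. Their mRNAs mostly lack poly(A) tails.

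Genes of protein synthesis and stress went in different directions. Unfolded protein response genes were higher in 14 of 24 and lower in 4, with PDIA4 up and HSP90B1, a chaperone, 1.17-fold down. ATF4 targets and tRNA synthetases were higher in 13 of 20 and lower in 1, with TRIB3, a pseudokinase, 1.57-fold and PHGDH, of serine synthesis, 1.27-fold above control. With the offsets the log2 fold change of TRIB3 was 0.29. Cytosolic ribosomal protein genes were lower in 29 of 48 and higher in 7 (median -0.15), and 31 were not restored. Mitochondrially encoded mRNAs were lower in 12 of 13 and higher in 0 (median -0.37), and lower in 7 with the offsets, with MT-CO1, of cytochrome c oxidase, at 8222 ± 354 CPM in control and 6531 ± 154 CPM in add-back cells. Of the nuclear genes of oxidative phosphorylation 8 of 32 were higher and 6 lower. Cytosolic heat shock genes were lower in 8 of 16 and higher in 5.

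Immune genes differed by list. NF-κB targets and cytokines were lower in 7 of 13 and higher in 1 (median -0.54), among them BIRC3, an inhibitor of apoptosis, at 30.7 to 36.7 CPM in control and 14.7 to 17.6 CPM in add-back libraries. CSF1, IL32 and LIF, all cytokines, were add-back only, with log2 fold changes of -0.66, -0.76 and -0.54. With the offsets CSF1 and IL32 were called below control in knockout cells too and so fell in the class that moved further. Interferon-stimulated genes were higher in 9 of 22 and lower in 3, with ISG15, a ubiquitin-like protein, 3.44-fold above control. Antigen presentation genes were higher in 3 of 17 and lower in 7 (median -0.14). In knockout against control 9 of the 17 were higher and 3 lower (median 0.19). Of the 17, 5 were not restored, 3 had returned, 2 overshot and 2 were add-back only. Of 11 immune checkpoint ligands 4 were higher and 1 lower: VTCN1, the ligand B7-H4, was at 0.316 to 0.714 CPM in control, 19.1 to 21.9 CPM in knockout and 4.27 to 5.69 CPM in add-back libraries, and so had come back only in part.

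In most of the remaining lists the calls went both ways. In the semaphorin and kallikrein lists they were mostly higher in the fit without offsets. Glucocorticoid receptor targets were higher in 3 of 16 and lower in 6, with FKBP5, a chaperone of that receptor, 1.68-fold below control and the receptor gene NR3C1 1.48-fold below, in a medium that held hydrocortisone. Wnt genes were higher in 7 of 18 and lower in 5, with DKK1, a secreted Wnt inhibitor, 1.83-fold above control, and p53 targets higher in 8 of 20 and lower in 5. BMP and ID genes and the glycosyltransferase list each had 5 higher and 5 lower, of 17 and 16 tested. Semaphorin, plexin and VEGF genes were higher in 9 of 17 and lower in 2, although the median of 0.17 fell to -0.02 with the offsets. Kallikreins, cystatins and cathepsins were higher in 7 of 15 and lower in 2, integrin and basement membrane genes higher in 8 of 18 and lower in 5, and G1 cyclins and CDK inhibitors higher in 4 of 17 and lower in 4.

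Differences also lay together along the chromosomes. In windows of 10 Mb with at least 20 tested genes, of which there were 277, the lowest medians were on chromosomes 13 and 2. On chromosome 13 from 30 Mb on, 167 of 231 genes in 6 windows were lower in add-back than in control cells and 3 were higher, with window medians of -0.91 to -0.45, beside -1.06 to -0.44 in knockout against control. On chromosome 2 from 180 Mb on, 235 of 346 genes in 7 windows were lower and 14 higher, with medians of -0.53 to -0.33 beside -0.72 to -0.37. The last window of chromosome 14 that was filled had 47 of 81 genes higher and 1 lower (median 0.43, beside 0.59 in knockout). These are stretches in which knockout cells already differed from control, and with the offsets their medians kept their sign. Windows with medians of 0.37, 0.37 and 0.55 at the ends of chromosomes 19, 20 and 22 came to 0.02, 0.00 and 0.00 with the offsets. Among the genes named here FN1, NRP2, SPAG16, ITGAV, DOCK10 and ASB18 lie in the stretch of chromosome 2, and COL4A1 and GPC6 on chromosome 13, as do the retinoblastoma gene RB1 and the chaperone gene DNAJC3, which were 1.37-fold and 1.53-fold below control.

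On chromosome 7 the add-back cells lay above the knockout cells in a long stretch. From 90 Mb to the end, 234 of 485 genes in 7 windows were higher in add-back than in control cells and 24 lower, against 100 higher and 72 lower of 412 genes in the 7 windows before. Window medians of add-back against knockout were 0.18 to 0.25 in this stretch, -0.04 to 0.07 before it and -0.21 to 0.19 in the 263 windows of the other chromosomes. Add-back against control had medians of -0.01 to 0.44 in the stretch. Knockout against control had medians of -0.14 to 0.24 in the same windows. With the offsets the medians of add-back against knockout were 0.18 to 0.27 in the stretch and -0.18 to 0.19 on other chromosomes. A smaller difference of this kind lay at the start of chromosome 2, where the 4 windows up to 40 Mb had medians of add-back against knockout of 0.12 to 0.17, and 0.14 to 0.19 with the offsets. The chromosome 7 stretch was singled out after its values were seen, so its place among the windows is a description. PDIA4 (149003062 to 149028641) lies in it, while CDK6 and AKR1B10, which lie there too, were below control. Why neighbouring genes differed together was not tested.

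**Figure D4:**
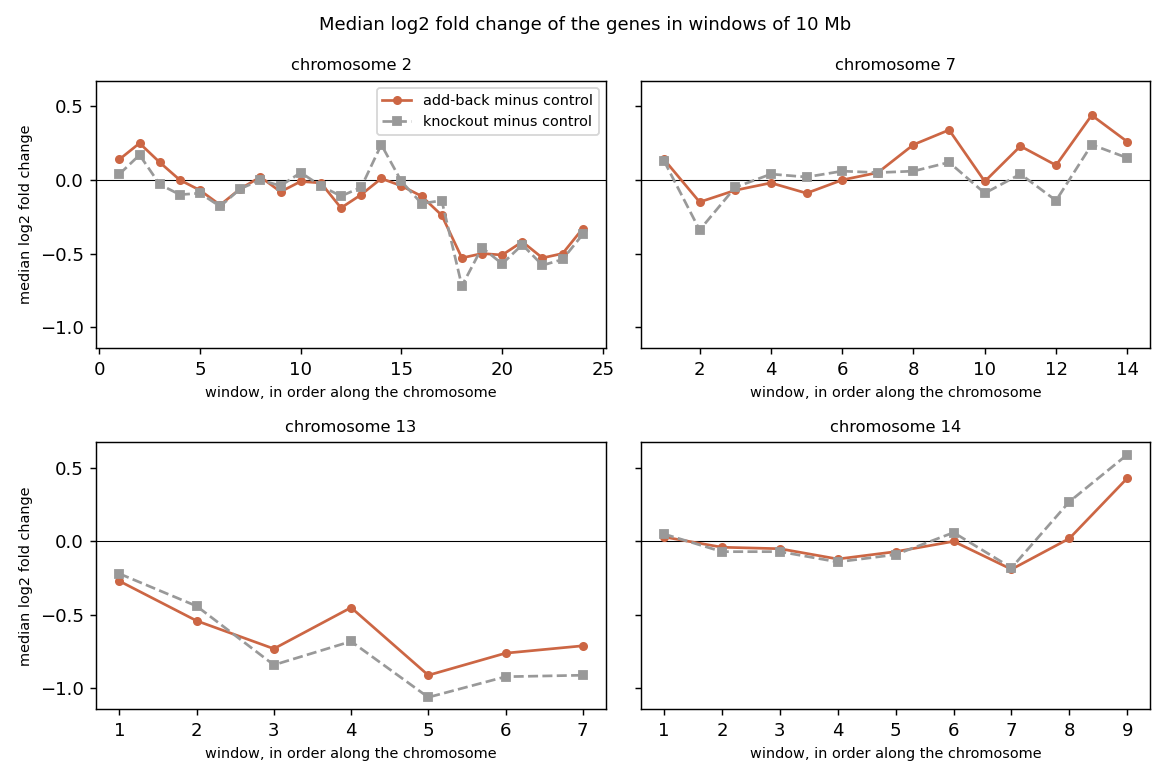
Median log2 fold change of the tested genes in consecutive windows of 10 Mb along chromosomes 2, 7, 13 and 14 (windows with fewer than 20 genes left out), for add-back minus control (orange circles) and knockout minus control (grey squares). Both lines lie low on chromosome 13 and at the end of chromosome 2, where the add-back medians are -0.91 to -0.45 from 30 Mb on and -0.53 to -0.33 from 180 Mb on, and on chromosome 7 add-back lies above knockout from 90 Mb on.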

How the data were processed

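The submitters' processing notes name FastQC, Trim Galore, GSNAP, RSEM and the build GRCh38. Versions, the annotation release and the use of strand in counting are not given in the sources used here. The deposited values are RSEM expected counts without normalisation, in 1 table of genes and 1 of transcripts, each holding all libraries. Expected counts were rounded to whole numbers for testing.

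Of 60664 gene entries 60463 had a symbol, and 58396 had a position, type, GC content and length in GENCODE 29 on GRCh38. Entries with low counts were filtered by group with filterByExpr, which left 19516 genes. edgeR 4.0.16 in R 4.3.3 was fitted with TMM factors and 1 group-means model to all 15 libraries, so all groups shared the estimate of spread. Genes were called with the two-sided quasi-likelihood F test at p under 0.05 after Benjamini-Hochberg adjustment over all genes tested. Levels were expressed in CPM after TMM scaling, as the mean ± SD or the range of 3 libraries. The biological coefficient of variation was 4.99%. Squared count differences between replicates were 2.15 to 3.59 times counting error (chi-square per degree of freedom) in add-back and control cells. On simulated counts of add-back against control (19055 genes), 59.2% of 49 genes changed 1.5-fold and 70.0% of 50 genes changed 2-fold were called, with 9 false calls. Few genes were changed in the simulation, against 8942 called in the data, so the p-value adjustment was stricter there. These shares are therefore not the power of the real comparison.

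Alternatives were RLE and upper-quartile factors, DESeq2 1.42.0, limma-voom (limma 3.58.1), other filters on low counts, the libraries of the compared groups alone, the replicate number as a block, offsets for GC content and length, and leaving out each library. Genes are named by a rule: ESR2, the 8 largest differences in each direction, the 3 or 4 largest of each class, and up to 3 called members of each of 41 lists with the smallest p. Apart from ESR2, list members and returned genes, these are protein-coding, reach a log2 CPM of 1 on average and do not overlap between add-back and control libraries. Returned genes are the 3 in each direction with the largest difference of knockout from control. They are protein-coding, reach that level on average over the 9 libraries, and their knockout libraries overlap neither other group. The comparison, the lists and the rule were chosen with earlier results of these data known. Promoter windows are RefSeq's, and antisense and overlapping genes may share reads. Some genes that the rule names are not reported here.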

Additional observations from a re-analysis of the deposited data

How the results depend on the processing

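The log2 fold change of ESR2 stayed between 2.41 and 2.60 under all alternatives and was called each time. The count of genes at least 2-fold higher was 904 and moved to 594 with the GC content and length offsets. The other counts over all genes, of calls and of classes, were within 1.5 times of their value under each alternative. Counts within lists moved more: with the offsets mitochondrially encoded mRNAs went from 12 to 7 lower, p53 targets and matrix genes from 8 to 5 higher, ATF4 targets from 1 to 4 and aldehyde dehydrogenases from 3 to 5 lower, and under the upper-quartile factors junction genes from 3 to 6 lower. With the offsets 8228 genes were called, of which 6698 were among the 8942, and 4459 of the 6536 not restored, 94 of the 147 overshot, 570 of the 863 add-back only and 712 of the 1081 returned genes fell in the same class again. DESeq2 called 7470 genes and put 96 of the 147 in the overshot class again. Leaving out each library in turn gave 7826 to 8979 genes called, 5644 to 6309 not restored, 112 to 144 overshot, 636 to 959 add-back only and 862 to 1125 returned. Of 161 genes with a value under the offsets, 7 were no longer called (RNF223, CD276, RPL5, NDUFV1, NDUFB3, COL1A1 and TGFB1), and JUND reversed to a log2 fold change of -0.07, and the cause was not tested. OLFML3, FASN and JUP were then called higher than in knockout cells too, and MKI67 was no longer called apart from them. The log2 fold change of COL6A1 became 1.17 and that of JPH2 0.04. Under the upper-quartile factors TRIM31 (adjusted p = 0.0467) and TGFBR2 (0.0256) were called below control, and under the RLE factors JPH2 (0.0499) above it. DESeq2, limma-voom and both other filters changed no call among the named genes. List medians changed sign with the offsets for semaphorin, plexin and VEGF genes (0.17 to -0.02), integrin and basement membrane genes (0.09 to -0.05), BMP and ID genes (-0.03 to 0.05), junction genes (-0.01 to 0.03) and nuclear genes of oxidative phosphorylation (-0.02 to 0.02). Depth limits the low genes: TFF1 rests on 10 reads in control cells.

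No pairing of the libraries by their shared replicate numbers was visible, but 3 libraries per group are too few to exclude one. Residual profiles of add-back and control libraries with the same number had correlations across genes of -0.184, 0.003 and 0.002, and those with different numbers ran from -0.154 to 0.148. With the replicate number as a block 8745 genes were called, with 6405 not restored, 133 overshot, 799 add-back only and 1010 returned, and ESR2 had a log2 fold change of 2.51. JPH2 (adjusted p = 0.0479) and TRIM31 (adjusted p = 0.0489) were then called, and no other named gene changed its call.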

Other observations

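Further add-back libraries, kept for 72 h in medium with 1% charcoal-treated serum and given vehicle or 200 nM of the ERβ agonist LY500307 for 24 h, give further values of genes named above. The medium differs from that of the control, knockout and untreated add-back cells, so no difference from those was tested, and values are set side by side. TFF1 was at 2.31 ± 0.333 CPM in untreated add-back cells, 0.567 ± 0.200 CPM with vehicle and 4.04 ± 0.249 CPM with LY500307 (mean ± SD, n = 3 each). IGFBP4 was at 20.5 ± 2.05, 8.26 ± 0.823 and 21.6 ± 1.06 CPM in the same groups, and GREB1 at 12.98 ± 2.39, 3.68 ± 0.381 and 21.9 ± 0.711 CPM. In these 3 estrogen-induced genes the vehicle group was the lowest. Other genes that stood apart in untreated add-back cells took several courses. RNF223 was at 5.37, 2.81 and 5.39 CPM on average in these groups. Some genes that were low in untreated add-back cells were higher in the other medium: LBH was at 13.2, 32.8 and 26.7 CPM, GABRA3 at 3.57, 6.98 and 5.53 CPM, PRUNE2 at 1.72, 16.1 and 14.2 CPM and TGFB2 at 11.4, 27.6 and 24.98 CPM. Levels nearer to each other were seen for some: PTPRR was at 13.3, 15.9 and 16.7 CPM on average, FN1 at 116, 101.5 and 111 CPM, PDIA4 at 247, 245 and 255 CPM and MCM3 at 114, 104 and 107 CPM. LEF1 and PCDH11X, which were add-back only and high in full medium, were at 13.5, 3.42 and 3.86 CPM and at 8.69, 1.31 and 1.39 CPM, and with vehicle and agonist both lay under their control levels of 6.59 and 3.42 CPM.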
